A study of Mus musculus with 9 samples.

Results

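The Dlx genes encode homeodomain transcription factors, the vertebrate relatives of the fly gene Distal-less. In the mouse they lie as linked pairs whose members are transcribed towards each other, and enhancers around a pair are known to act on both of its genes. Dlx1 and Dlx2 are known for the skeleton of the upper jaw and for inhibitory neurons of the ventral forebrain, Dlx5 and Dlx6 for lower jaw identity, the nasal capsule and bone formation, and Dlx3 for epidermis, hair and teeth. Dlx4 is the least studied of the family.

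All 6 Dlx genes were taken by name, as the rows Dlx1 to Dlx6 among the 54532 genes of the count table. The libraries hold RNA of the lambdoidal junction, the place where the nasal and maxillary prominences meet and fuse into the upper lip and primary palate, from C57BL/6J mouse embryos. The stages were E10.5 (embryonic day 10.5), E11.5 and E12.5. Each stage had 3 libraries, each from a pool of embryos, with no treatment and no engineered allele. Whole tissue was used, so fewer cells of a type and less RNA per cell cannot be told apart. Nothing in the sources says that the pools came from separate litters, so the p-values measure the spread between these libraries, which may be technical.

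The libraries held between 16581009 and 20836804 counts. At E10.5, replicate 3 stood apart: the SD over genes of its log2 difference from the other replicates was 0.547 and 0.552, against 0.205 between those replicates. Between E11.5 replicates it was 0.189 to 0.241, and between E12.5 replicates 0.351 to 0.477. Markers of facial mesenchyme, such as Prrx1 and Col3a1, summed to 1535 CPM (counts scaled to the library size) in that library and to 2653 and 2750 in the other E10.5 libraries, while markers of surface epithelium, such as Epcam and Krt8, summed to 946 against 538 and 607. Its deviation from the stage mean also ran the other way with GC content over genes (Spearman rho of -0.546, against 0.438 and 0.469 in replicates 1 and 2). Deviations from a stage mean cancel out over its libraries, so the opposite sign does not show which library is unusual. Markers of both tissues of the labelled region were thus present in every library. Changes of the Dlx genes that use E10.5 are given without this library too where its removal changed a call.

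Dlx1 (ENSMUSG00000041911, chr2:71528113-71533981, plus strand) and Dlx2 (ENSMUSG00000023391, chr2:71543408-71546754, minus strand) lie 9.426 kb apart in GRCm38. Dlx3 (ENSMUSG00000001510, chr11:95120119-95125296, plus strand) and Dlx4 (ENSMUSG00000020871, chr11:95140447-95146263, minus strand) lie 15.15 kb apart. Dlx6 (ENSMUSG00000029754, chr6:6863334-6868568, plus strand) and Dlx5 (ENSMUSG00000029755, chr6:6877805-6882085, minus strand) lie 9.236 kb apart. Exons of antisense genes overlap 6.21% of the exon bases of Dlx1, 2.42% of those of Dlx4 and 4.38% of those of Dlx6. Dlx2, Dlx3 and Dlx5 share no exon bases with another gene.

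Of the Dlx genes, Dlx1 and Dlx2 had an entry in the promoter table used here, and the 250 bases before the start of Dlx2 are shown (RefSeq, GRCm38.p6, chr2:71546755-71547004, minus strand). Capitals mark the matches to CCAAT and GGGCGG, which are read here on the opposite strand.
Dlx2 promoter: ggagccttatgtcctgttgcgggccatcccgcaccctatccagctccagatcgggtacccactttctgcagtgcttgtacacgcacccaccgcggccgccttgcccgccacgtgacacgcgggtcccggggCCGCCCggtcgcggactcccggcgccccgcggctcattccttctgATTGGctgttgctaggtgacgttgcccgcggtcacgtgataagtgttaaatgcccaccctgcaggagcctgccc
The GC content of this stretch was 66.4%. CCAAT and GGGCGG each matched once, and among 32851 promoters of the same length 33.9% and 32.7% held them on either strand. TAATTA and TAATTG, the core letters that many homeodomains bind, and TATAAA had no match, and the motifs occurred in 4.84%, 7.17% and 12.4% of the promoters. The motifs do not overlap each other in this stretch.

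A gene is said to have risen or fallen between 2 stages where the Benjamini-Hochberg adjusted p of edgeR's quasi-likelihood test was at most 0.05 over all genes tested, and is called a DEG where the absolute log2 fold change was also at least 1. All 6 Dlx genes passed the filter on low counts in every comparison. From E10.5 to E11.5 2 of the 6 fell, Dlx1 and Dlx2, and the other 4 did not pass. Over all genes tested in this interval 5.58% fell and 6.19% rose. From E11.5 to E12.5 Dlx2 fell and Dlx3 and Dlx4 rose, where 4.57% of all genes fell and 7.61% rose. Over the whole span from E10.5 to E12.5 Dlx1 and Dlx2 fell and Dlx5 rose, where 10.5% of all genes fell and 14.0% rose. With the 3 stages tested together, 4 of the 6 passed (Dlx1, Dlx2, Dlx4 and Dlx5), against 28.3% of all genes. The Dlx5 call here (edgeR adjusted p = 0.0499) was lost under 9 of 12 alternatives, among them DESeq2's size factors (0.0520), and the Dlx4 call (0.0338) under 7 of 12. Both were lost without E10.5 replicate 2, any single E11.5 library or E12.5 replicate 1, Dlx4 also without E12.5 replicate 2, and Dlx5 also without E10.5 replicate 1 or E12.5 replicate 3. Dlx6 passed in none of these tests.

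The DEGs of the family were Dlx2 in the first interval, Dlx4 in the second, and Dlx1 and Dlx2 over the whole span. Among all genes tested 6.07%, 5.10% and 15.0% were DEGs in these comparisons. The 3 libraries of a stage lay all above or all below those of the other stage for 2 Dlx genes in the first interval (Dlx1 and Dlx2), for 3 in the second (Dlx2, Dlx3 and Dlx4) and for 4 over the whole span (Dlx1, Dlx2, Dlx4 and Dlx5). The corresponding shares of all genes were 36.5%, 36.0% and 42.2%. The median log2 fold change over all genes tested was -0.032, 0.019 and -0.0063. Scaling by TMM sets this centre near 0.

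**Figure D1:**
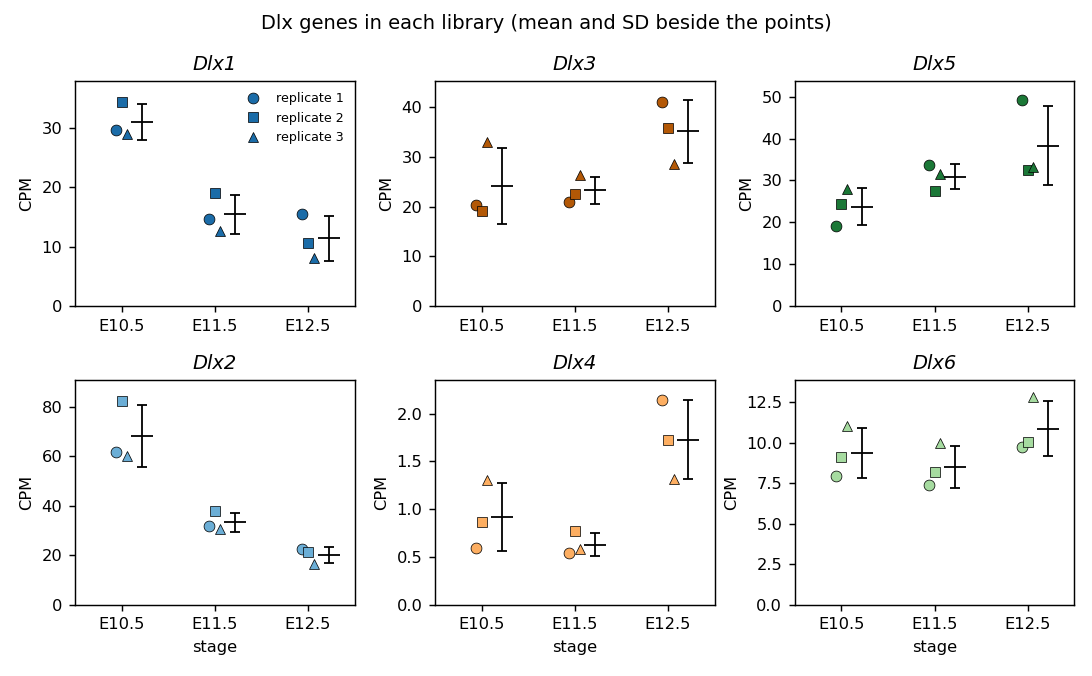
Level of each Dlx gene in CPM in the 9 libraries by stage, with the mean and SD of 3 libraries drawn beside the points and the replicates told apart by symbol. Each panel has its own axis starting at 0. The E10.5 points of Dlx1 and Dlx2 lie above those of both later stages, Dlx5 has higher means at each later stage, and Dlx6 overlaps across the stages.

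Dlx1 and Dlx2, the pair known for the upper jaw, fell. The E10.5 libraries held 498, 592 and 466 counts of Dlx1, which was 29.6, 34.4 and 28.9 CPM. At E11.5 Dlx1 was at 14.6, 19.0 and 12.7 CPM, and at E12.5 at 15.5, 10.6 and 8.11 CPM. Every E10.5 library was thus above every later library, while the E11.5 and E12.5 libraries overlapped. The log2 fold change of Dlx1 was -0.998 in the first interval (SE 0.17, edgeR adjusted p = 0.0105), just short of the fold required of a DEG. In the second interval it was -0.44 (SE 0.23, adjusted p = 0.233), which did not pass, and over the whole span -1.43 (SE 0.25, adjusted p = 0.00198).

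Dlx2 had 1041, 1423 and 969 counts at E10.5, or 61.9, 82.6 and 60.0 CPM. It was at 32.1, 37.8 and 30.5 CPM at E11.5 and at 22.7, 21.3 and 16.4 CPM at E12.5. The 3 stages formed 3 separate ranges in falling order. The log2 fold change of Dlx2 was -1.02 in the first interval (SE 0.16, edgeR adjusted p = 0.00647) and -0.74 in the second (SE 0.16, adjusted p = 0.0129). Over the whole span it was -1.75 (SE 0.21, adjusted p = 1.64e-04), the largest change of the 6 genes there.

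The whole-span falls of Dlx1 and Dlx2 passed under each alternative that was run on this pair of stages. Without E10.5 replicate 3 the first-interval falls were -1.04 for Dlx1 and -1.10 for Dlx2 (edgeR adjusted p = 1.44e-04 and 1.99e-05). The falls in the first interval were lost without single E11.5 libraries, and the calls over all genes dropped too. Of the genes tested, 477 of 16166 passed without E11.5 replicate 1 and 527 of 16205 without replicate 3. With no library left out it was 1849 of 15708. The log2 fold changes without E11.5 replicate 1 were -0.95 for Dlx1 and -0.99 for Dlx2. Without E11.5 replicate 1 the adjusted p rose to 0.0732 for Dlx1 and 0.0547 for Dlx2, so that 0 Dlx genes passed, and without E11.5 replicate 3 it was 0.0609 for Dlx1. The second-interval fall of Dlx2 was lost without E11.5 replicate 2 (adjusted p = 0.0689), where 716 of 16241 genes passed, against 1926 of 15808.

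Markers of the ventral forebrain, where Dlx1 and Dlx2 are also active, fell in the same interval. Of 8 such genes 7 could be tested from E10.5 to E11.5, and 6 of them fell, among them Gsx2, Nkx2-1 and Gad2. The list summed to 60.3, 73.0 and 90.6 CPM in E10.5 replicates 1, 2 and 3, to between 5.48 and 12.02 CPM at E11.5 and to between 8.47 and 14.1 CPM at E12.5. Nkx2-1, a ventral forebrain regulator, averaged 44.4, 0.908 and 0.319 CPM at the 3 stages, and Gsx2, which marks the progenitors where Dlx2 is switched on, 2.16, 0.016 and 0 CPM. Replicate 3, the E10.5 library with the highest sum and the library that stood apart, was at 28.9 CPM of Dlx1 and 60.0 CPM of Dlx2. Replicate 1, with the lowest sum, was close to it at 29.6 and 61.9 CPM. Replicate 2 was at 34.4 and 82.6 CPM. Between E11.5 and E12.5, where Dlx2 fell, the ranges of the sum overlapped, but its members moved both ways. Gad2, an enzyme of GABA synthesis, fell from 5.03 to 1.48 CPM (edgeR log2 fold change -1.77, adjusted p = 0.00413), as Dlx2 did, and Sp9, a zinc finger factor, rose from 0.311 to 6.26 CPM (4.31, adjusted p = 4.99e-05). The part of forebrain RNA in the falls of Dlx1 and Dlx2 was not tested.

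**Figure D2:**
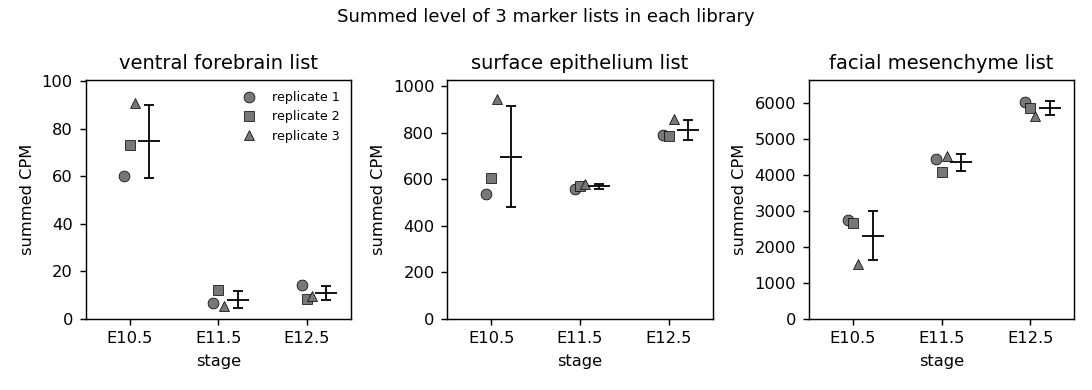
Summed CPM of the ventral forebrain, surface epithelium and facial mesenchyme lists in the 9 libraries by stage, with the mean and SD of 3 libraries beside the points. The ventral forebrain list was between 60.3 and 90.6 CPM at E10.5 and at most 14.1 CPM later, and replicate 3 at E10.5 was the highest of its stage for epithelium and the lowest for mesenchyme.

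Dlx3 and Dlx4 rose in the second interval. Dlx3, a regulator of epidermal and tooth differentiation, was at 20.4, 19.1 and 33.1 CPM at E10.5. The library that stood apart in its epithelial markers, replicate 3, was the high value. At E11.5 Dlx3 was at 20.98, 22.6 and 26.3 CPM, and at E12.5 at 41.1, 35.9 and 28.5 CPM. The E12.5 libraries were all above those of E11.5, and the E10.5 libraries overlapped both. The log2 fold change of Dlx3 was -0.052 in the first interval (SE 0.22, edgeR adjusted p = 0.905), 0.59 in the second (SE 0.16, adjusted p = 0.0376) and 0.55 over the whole span (SE 0.25, adjusted p = 0.131).

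The whole-span value of Dlx3 depended on E10.5 replicate 3, and so did its test over the 3 stages, where the edgeR adjusted p was 0.0841 with this library and 0.00404 without it (and 0.0167 with it when no filter on low counts was used). Without this library the log2 fold change was 0.84 (edgeR adjusted p = 0.00944), which passed, and the first-interval value turned from -0.052 to 0.24 (adjusted p = 0.125). The rise in the second interval was lost without any one of E11.5 replicates 1, 2 and 3 (adjusted p = 0.160, 0.149 and 0.0733) and without E12.5 replicate 1 (adjusted p = 0.149). It was also lost with all 9 libraries in 1 fit and with the trend of GC content removed (adjusted p = 0.0589).

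Dlx4 was the lowest of the family, with 10, 15 and 21 counts at E10.5, 10, 16 and 11 at E11.5 and 38, 32 and 22 at E12.5. These counts were 0.594, 0.871 and 1.30 CPM at E10.5, 0.538, 0.769 and 0.579 CPM at E11.5 and 2.14, 1.73 and 1.31 CPM at E12.5. The E12.5 libraries lay above all others, by a narrow margin for replicate 3. The log2 fold change of Dlx4 was -0.54 in the first interval (SE 0.41, edgeR adjusted p = 0.433), 1.44 in the second (SE 0.35, adjusted p = 0.0243) and 0.91 over the whole span (SE 0.42, adjusted p = 0.136). At these counts its standard errors were the widest of the 6 genes. The second-interval rise was lost without any one E11.5 library (adjusted p = 0.101, 0.0700 and 0.101 without replicates 1, 2 and 3) and without E12.5 replicate 1 (0.106).

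Surface epithelium markers, given here because Dlx3 is an epithelial gene, summed to between 559 and 581 CPM at E11.5 and between 786 and 859 CPM at E12.5. Of the 11 genes in this list 2 rose in the second interval, the basal keratins Krt14 and Krt5, and the list's median log2 fold change was 0.022. Krt5 averaged 2.12, 34.5 and 151 CPM at the 3 stages. Over the whole span 3 rose (Krt14, Krt5 and Grhl3) and 3 fell (Krt8, Krt18 and Cldn6). The part of these markers in the rise of Dlx3 and Dlx4 was not tested.

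Dlx5, which acts in bone formation and jaw identity, was at 19.0, 24.3 and 28.0 CPM at E10.5, at 33.7, 27.6 and 31.6 CPM at E11.5 and at 49.2, 32.6 and 33.3 CPM at E12.5. The E12.5 libraries were above all E10.5 libraries, and E11.5 overlapped both neighbours. The log2 fold change of Dlx5 was 0.38 in the first interval (SE 0.17, edgeR adjusted p = 0.181), 0.30 in the second (SE 0.17, adjusted p = 0.262) and 0.70 over the whole span (SE 0.23, adjusted p = 0.0456). Neither step passed by itself. Without E10.5 replicate 3 the first-interval rise passed (0.52, adjusted p = 0.00530). In that fit 6447 of 16263 genes tested passed, against 1849 of 15708 with this library.

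The whole-span rise of Dlx5 was close to the threshold. It was lost without E12.5 replicate 1, the library with the highest value (0.47, edgeR adjusted p = 0.224), and also without E10.5 replicate 1, E10.5 replicate 2 or E12.5 replicate 3 (adjusted p = 0.0669 without the last). It was lost as well with the GC trend removed (0.50, adjusted p = 0.138).

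Dlx6, the partner of Dlx5, did not pass in any comparison. Its levels were 7.96, 9.12 and 11.02 CPM at E10.5, 7.37, 8.18 and 9.96 CPM at E11.5 and 9.75, 10.03 and 12.8 CPM at E12.5. The ranges of all stages overlapped. The log2 fold change of Dlx6 was -0.14 in the first interval (SE 0.20, edgeR adjusted p = 0.699), 0.35 in the second (SE 0.18, adjusted p = 0.232) and 0.22 over the whole span (SE 0.23, adjusted p = 0.528).

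**Figure D3:**
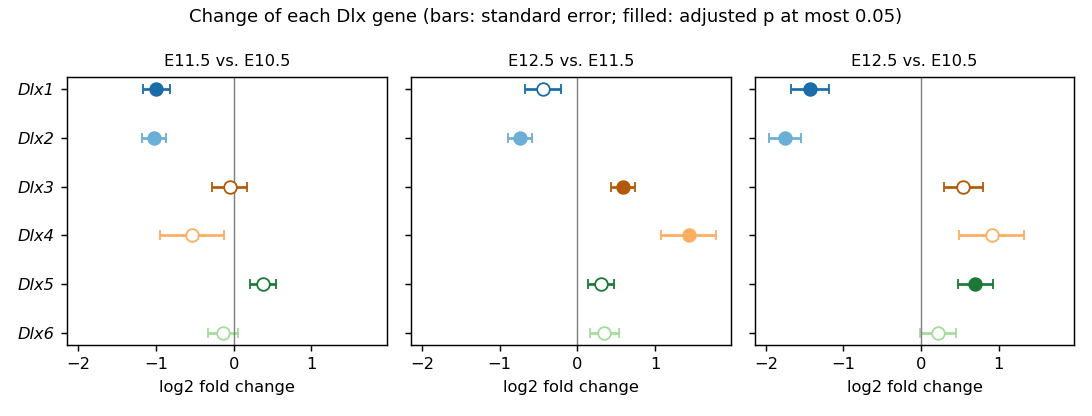
Log2 fold change of each Dlx gene, the later over the earlier stage, for the 3 pairs of stages, with bars of 1 standard error and filled points where the edgeR adjusted p was at most 0.05. Dlx1 and Dlx2 lie to the left of 0 in every panel, at -1.43 and -1.75 over the whole span, and Dlx3, Dlx4, Dlx5 and Dlx6 lie to the right of 0 in the second interval.

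A change that passed in one interval and not in the other is not by itself a difference between the intervals, so the second-interval change minus that of the first was also tested. This contrast passed for 0 of the 6 Dlx genes by edgeR, against 1.18% of all genes, and 1 (Dlx4) had an unadjusted p under 0.05. The difference for Dlx4 was 1.98 on the log2 scale (edgeR adjusted p = 0.273). For Dlx1 it was 0.57, for Dlx2 0.29, for Dlx3 0.65, for Dlx5 -0.070 and for Dlx6 0.49, with adjusted p between 0.540 and 0.955. The E11.5 libraries enter both intervals.

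The order of the genes at a stage was read from CPM per kb of gene length. At E10.5 the mean levels were 23.9 CPM per kb for Dlx2, 10.5 for Dlx5, 9.29 for Dlx3, 5.73 for Dlx1, 3.94 for Dlx6 and 0.282 for Dlx4. Dlx5 and Dlx3 overlapped, and the other neighbours in this order did not. At E11.5 Dlx5 led with 13.7 CPM per kb but overlapped Dlx2 at 11.7, followed by Dlx3 at 8.93, by Dlx6 and Dlx1, which overlapped, at 3.58 and 2.86, and by Dlx4 at 0.192. At E12.5 the order was Dlx5 at 16.9 CPM per kb, Dlx3 at 13.5, Dlx2 at 7.05, Dlx6 at 4.58, Dlx1 at 2.11 and Dlx4 at 0.528, where the ranges of Dlx5 and Dlx3 overlapped although Dlx5 was higher within each of the 3 libraries. Dlx2 went from the first place to the third, and Dlx4 was last at each stage.

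The make-up of the Dlx total followed. The summed level of the 6 genes was 53.6 ± 5.82, 41.0 ± 0.718 and 44.7 ± 7.48 CPM per kb at the 3 stages (SD, n = 3), and Dlx1 with Dlx2 held 55.3% ± 7.68, 35.6% ± 4.64 and 20.5% ± 1.77 of it. This share was between 46.7% and 61.4% at E10.5 and between 18.7% and 22.3% at E12.5, with no overlap between any stages. Dlx3 with Dlx4 held 17.8% ± 5.02, 22.3% ± 2.26 and 31.3% ± 2.27, and Dlx5 with Dlx6 held 26.9% ± 2.84, 42.2% ± 3.74 and 48.2% ± 4.03. Dlx2 alone went from 44.6% to 15.8%, and Dlx5 alone from 19.5% to 37.7%. The shares are a description, since they add up to the whole and a fall of Dlx2 raises those of the others.

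**Figure D4:**
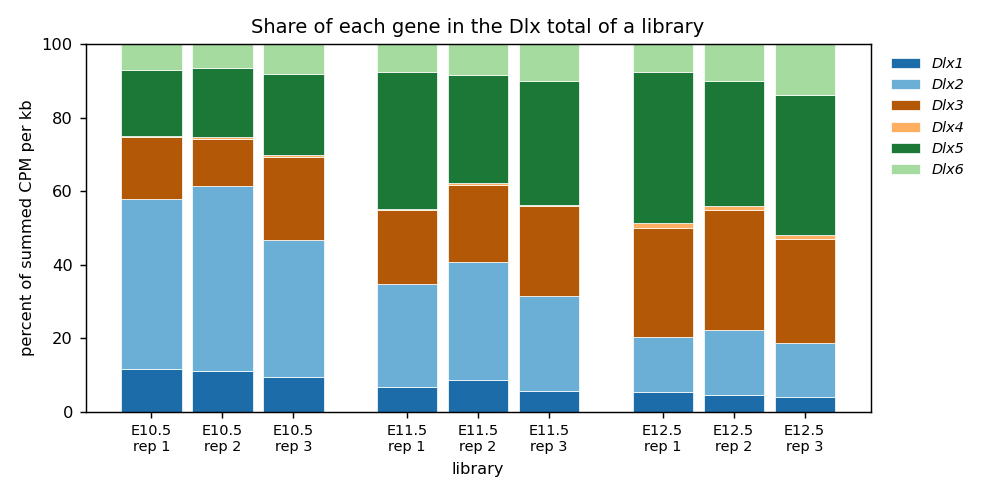
Percent of the summed CPM per kb of the 6 Dlx genes taken by each gene, as a stacked bar for each of the 9 libraries. The blue part, Dlx1 with Dlx2, takes 46.7% to 61.4% at E10.5 and 18.7% to 22.3% at E12.5, and Dlx4 is a thin line in every library.

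Whether the members of a linked pair changed by the same factor was asked from their ratio within each library, which does not depend on depth or scaling. An exact permutation test over the 1680 assignments of the libraries to stages took the spread of the ratio between all 3 stages together, so its p belongs to no single pair of stages. The counts per kb of Dlx2 were 3.95, 4.54 and 3.93 times those of Dlx1 at E10.5, 4.15, 3.75 and 4.54 times at E11.5 and 2.77, 3.79 and 3.82 times at E12.5. The stages overlapped, with E12.5 replicate 1 as the low value. The exact permutation test over the 3 stages gave p = 0.164 (adjusted over the 3 pairs, 0.164). As a description, the mean log2 ratio at E12.5 minus that at E10.5 was -0.27, and -0.12 without E12.5 replicate 1.

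Dlx4 stood at 0.0243, 0.0375 and 0.0321 of Dlx3 per kb at E10.5, at 0.0214, 0.0280 and 0.0183 at E11.5 and at 0.0421, 0.0389 and 0.0375 at E12.5. The ratio was lower in every E11.5 library than in any E12.5 library. The exact permutation p over the 3 stages was 0.0429, which became 0.129 after adjustment over the 3 pairs and did not pass. The mean log2 ratio was 0.83 higher at E12.5 than at E11.5 and 0.36 higher than at E10.5, or 0.19 higher than at E10.5 without E10.5 replicate 1.

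Dlx6 stood at 0.3999, 0.358 and 0.376 of Dlx5 at E10.5, at 0.209, 0.283 and 0.301 at E11.5 and at 0.189, 0.294 and 0.368 at E12.5. Each E10.5 library was above each E11.5 library, and E12.5 spread over nearly the whole range. The exact permutation p over the 3 stages was 0.164 (adjusted, 0.164). The mean log2 ratio at E12.5 minus that at E10.5 was -0.46, and -0.20 without E12.5 replicate 1. A p that misses the threshold does not show that the members of a pair changed alike. The smallest p this design allows is 0.00357.

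**Figure D5:**
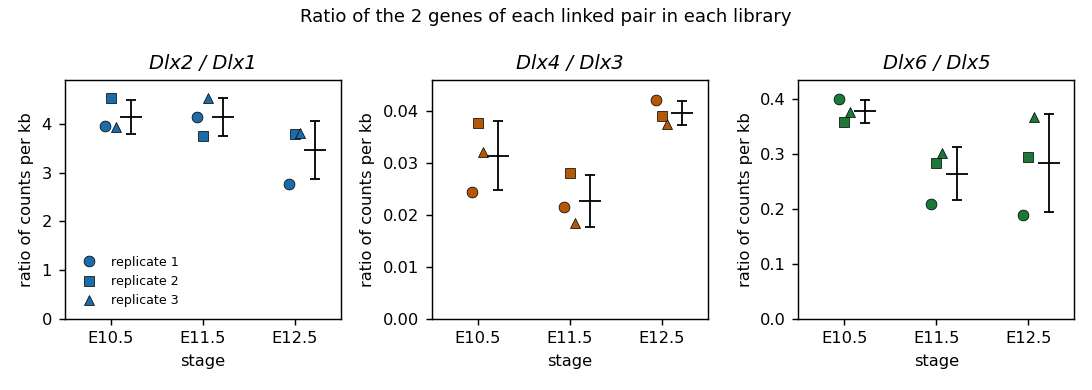
Ratio of counts per kb of the members of each linked pair in the 9 libraries by stage, with the mean and SD of 3 libraries beside the points and each axis starting at 0. Dlx2 was 2.77 to 4.54 times Dlx1, Dlx4 was 0.0183 to 0.0421 of Dlx3, and Dlx6 was 0.189 to 0.3999 of Dlx5, where the E11.5 points lie below those of E10.5.

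Across the 9 libraries the members of 2 pairs ran together in log2 CPM, and those of the third did so less. Pearson's r was 0.965 for Dlx1 and Dlx2, 0.865 for Dlx3 and Dlx4 and 0.314 for Dlx5 and Dlx6. Between pairs, r was 0.718 for Dlx3 and Dlx5, 0.600 for Dlx3 and Dlx6, and -0.733 for Dlx2 and Dlx5. The values share libraries, depth and stage, so they describe the likeness of profiles only.

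Noncoding genes at the Dlx loci were low except for Dlx6os1, also known as Evf2, an enhancer RNA of the Dlx5 and Dlx6 locus. Dlx1as, which is antisense to Dlx1, had 23, 40 and 20 counts at E10.5, 10, 6 and 7 at E11.5 and 4, 4 and 2 at E12.5. It fell with its neighbours, by 2.03 on the log2 scale in the first interval (SE 0.42, edgeR adjusted p = 0.0197) and by 3.07 over the whole span (SE 0.51, adjusted p = 0.00159), and was too low to be tested in the second. Dlx4os, antisense to Dlx4, had 5, 9 and 18 counts at E10.5, 11, 18 and 22 at E11.5 and 33, 32 and 41 at E12.5. It rose in the second interval as Dlx4 did, by a log2 fold change of 1.19 (SE 0.35, adjusted p = 0.0475), and by 1.64 over the whole span (SE 0.48, adjusted p = 0.0290). The calls of Dlx1as and Dlx4os were not checked under the alternatives run for the Dlx genes. Dlx6os1 was at 10.4 ± 6.91, 11.2 ± 2.03 and 10.9 ± 4.21 CPM (SD, n = 3), with an edgeR adjusted p of 0.974 over the 3 stages. Its E10.5 libraries were at 5.76, 7.08 and 18.3 CPM, with replicate 3, which stood apart, as the high value. The E11.5 libraries were between 9.76 and 13.5 CPM. Dlx6os1 was not tested without E10.5 replicate 3. Dlx6os2 had at most 4 counts in any library. The sources do not say whether reads were counted by strand, so reads of the overlapping exons of Dlx1, Dlx4 and Dlx6 and their antisense genes cannot be told apart.

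Most of the nearest protein-coding genes of Dlx1 and Dlx2 fell over the whole span, where 10.5% of all genes fell. Those beside the other pairs moved both ways. Metap1d, 2.919 kb from Dlx1 and a methionine aminopeptidase gene, had a whole-span log2 fold change of 0.19 (edgeR adjusted p = 0.539). On that locus Hat1 (-0.87, adjusted p = 0.0497), Itga6 (-0.81, adjusted p = 0.0176) and Pdk1 (-0.84, adjusted p = 0.0146) fell. They lie 86.49 to 326.5 kb from the pair. Each was highest in E10.5 replicate 3, where Dlx1 and Dlx2 were the lowest of their stage. Over E10.5 replicates 1, 2 and 3 Hat1 was at 129.7, 133.7 and 276 CPM. Itga6 was at 133.2, 132.9 and 177.5 CPM there, and Pdk1 at 79.8, 90.6 and 130.8 CPM. The falls of these neighbours were not tested without replicate 3. Beside Dlx3 and Dlx4 the integrin gene Itga3 fell (-1.32, adjusted p = 5.64e-04), Pdk2 rose (1.63, adjusted p = 5.48e-04), Kat7 did not pass (-0.48, adjusted p = 0.0858) and Tac4 had at most 3 counts in any library. Beside Dlx5 and Dlx6 Tac1, the substance P precursor, rose (3.54, adjusted p = 8.51e-05), Slc25a13 fell (-1.50, adjusted p = 6.30e-04), and Sem1 and Sdhaf3 did not pass (0.38 and -0.010, adjusted p = 0.389 and 0.985).

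Upstream of Dlx5 and Dlx6 in the lower arch stands the endothelin branch, in which the ligand Edn1 acts through the receptor Ednra and the factor Mef2c. Of its 8 genes 2 rose in the first interval and over the whole span, Ednra and Mef2c, and Mef2c rose in the second interval too. The list's median log2 fold change was 0.16, -0.041 and 0.12 in the first interval, the second and the whole span. Mef2c averaged 14.8, 26.6 and 63.3 CPM (whole span 2.11, SE 0.20, edgeR adjusted p = 3.98e-05) and Ednra 44.3, 112 and 105 CPM (1.25, SE 0.20, adjusted p = 0.00132). Furin, a protease that matures the ligand, did not pass (0.44, SE 0.24, adjusted p = 0.213), and Edn1 had at most 23 counts in any library.

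Of 9 other signals and factors known to act upstream of Dlx genes, 3 rose and 1 fell in the first interval, 1 rose and 2 fell in the second, and 5 rose and 1 fell over the whole span. The list's median log2 fold change was 0.38, 0.12 and 0.70 in these comparisons. Bmp2, a bone morphogenetic protein, rose from 2.49 through 7.68 to 23.9 CPM (whole span 3.27, SE 0.27, edgeR adjusted p = 1.65e-05). Fgf8, an epithelial growth factor that induces Dlx2, fell from 38.4 through 15.7 to 5.40 CPM (-2.82, SE 0.23, adjusted p = 1.34e-05). Msx1, a homeobox gene of the facial mesenchyme, rose from 235 to 549 CPM (1.23, SE 0.24, adjusted p = 0.00376). The other genes of this list that rose over the whole span were Bmp4, Bmp7 and Tfap2b. The part of these signals and factors in the Dlx changes was not tested.

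Genes that depend on Dlx genes in the pharyngeal arches moved both ways. Of 12 such genes 9 could be tested, and over the whole span 3 rose (Gsc, Bmper and Irx5) and 2 fell, among them Pitx1, with a median log2 fold change of 0.52. In the first interval 2 rose and 1 fell, with a median of 0.52, and in the second 2 rose and 1 fell, with a median of -0.11. Bmper, an extracellular regulator of BMP signalling, averaged 5.95, 14.6 and 24.5 CPM (2.05, SE 0.23, edgeR adjusted p = 1.13e-04), and Pitx1, a homeobox gene of the oral ectoderm and lower jaw, 81.8, 39.3 and 31.2 CPM (-1.38, SE 0.20, adjusted p = 7.13e-04). Hand1, Hand2 and Gbx2 were too low to be tested, with at most 10, 22 and 10 counts in any library. Hand2, the lower-arch factor that Dlx5 and Dlx6 are known to switch on, averaged 0, 0.053 and 0.929 CPM at the 3 stages.

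Skeletal genes downstream of Dlx5 and Dlx6 had the largest median change of the 4 pathway lists. Of 6 such genes 4 rose over the whole span (Runx2, Sp7, Alpl and Col1a1) and Ibsp, a bone matrix gene with at most 34 counts in any library, fell, with a median log2 fold change of 2.68. In the first interval 3 of 5 tested rose and 1 fell (median 2.11), and in the second 4 of 5 rose (median 1.499). Sp7, the osteoblast factor osterix, rose from 1.67 through 7.23 to 28.7 CPM (4.10, SE 0.29, edgeR adjusted p = 5.31e-06). Runx2, the factor that commits cells to the osteoblast lineage, rose from 4.44 through 59.8 to 99.3 CPM (4.49, SE 0.44, adjusted p = 4.41e-05), and Col1a1, the main bone collagen, from 41.5 through 267 to 758 CPM (4.20, SE 0.36, adjusted p = 2.01e-05). The rise of Dlx5 over the same span was 0.70, and 6 of 8 facial mesenchyme genes rose over that span. The sum of this list was between 1535 and 2750 CPM at E10.5 and between 5655 and 6039 CPM at E12.5. Within E10.5 the order was opposite. Replicates 1, 2 and 3 had sums of 2750, 2653 and 1535 CPM, and 19.0, 24.3 and 28.0 CPM of Dlx5. At E11.5 replicate 2 was the lowest for both, and at E12.5 replicate 1 was the highest for both. The part of mesenchyme content in the rise of Dlx5 was not tested.

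Of the other markers that could accompany the Dlx genes, 4 of 8 olfactory and nasal placode genes fell over the whole span, among them Pax6 and Six3, and the list summed to 298 to 339 CPM in E10.5 libraries, to 272 to 280 CPM a day later and to 232 to 257 CPM by E12.5. Among 6 neuronal genes Stmn2 rose, among 6 blood genes 1 rose, Hba-a1, and 2 fell, among them Hbb-bh1, and none of 6 endothelial genes passed over that span. Skeletal muscle markers summed to at most 4.94 CPM in any library. Their part in the Dlx changes was not tested.

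The genes whose log2 CPM was most like that of a Dlx gene over the 9 libraries were sought among 14513 genes. For Dlx1 they were Mthfd1, Smyd5 and Slc16a3 (r = 0.982, 0.978 and 0.975), and for Dlx2 Slc16a3, Lrp8 and Ninl (0.995, 0.992 and 0.991). Slc16a3, a monocarboxylate transporter gene, averaged 82.8, 43.1 and 28.7 CPM at the 3 stages and was the only gene named for more than 1 Dlx gene. For Dlx3 they were 3110056K07Rik, Slc27a2 and Galnt16 (0.924, 0.922 and 0.916), and for Dlx4 Pde1b, Rtn4rl1 and Grik1 (0.970, 0.954 and 0.951). For Dlx5 they were Zpbp, 5930409G06Rik and Gimap8 (0.976, 0.953 and 0.938), and for Dlx6 Btg3, Gm16136 and Lyz2 (0.957, 0.938 and 0.936). The genes named for Dlx5 were low, such as Zpbp at 0.718, 1.05 and 1.62 CPM at the 3 stages. Grik1, named for Dlx4, was low too, at 0.640, 0.460 and 1.95 CPM. These r values were picked as the highest among 14513 genes over 9 libraries, so they describe likeness only. No Dlx gene was among the 3 nearest of another, including Dlx1 and Dlx2 with their r of 0.965.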

How the data were processed

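Per the labels and methods, total RNA was the input from which TruSeq RNA libraries were made for sequencing. The authors mapped reads with HISAT2 v2.0.5 to GRCm38/mm10 and counted them with featureCounts. Strand and multi-mapping settings are not given in the sources used here. The deposited table holds whole-number counts per gene and library and the authors' FPKM, which only served to check the within-pair ratios. Its fold change and p-value columns were not used.

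Counts were tested with edgeR 4.0.16 (R 4.3.3, limma 3.58.1) after filterByExpr and TMM, each pair of stages on its 6 libraries, with Benjamini-Hochberg adjustment over 15708 to 16375 genes tested. CPM uses TMM library sizes of all 9 libraries. Within-pair ratios had 0.5 added to each count. Log2 CPM for correlations used a prior count of 2, over genes with a mean of at least 1 CPM. Tables were made in Python 3.11.15. Scripts were tested on simulated data. Depth of 16581009 to 20836804 counts limits genes of few counts. Alternatives were DESeq2 1.42.0, other normalizations and filters, GC-trend removal, a replicate block and leaving out each library. Among single genes they were read for the 6 Dlx genes only, so calls of other genes had no such check. Exon overlaps and GC content come from GENCODE vM21. Of the 6 genes 2 were in the RefSeq promoter table.

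The members and gene lists were chosen with earlier results of these data known. Named genes were the Dlx genes, up to 3 genes per pathway list with the smallest p over the 3 stages plus any with at most 3 counts in every library, the 3 most similar genes by Pearson's r, the nearest 2 protein-coding genes on either side, and overlapping genes. Other genes named, among them Ibsp, Edn1, Hand2 and the markers, were chosen after their values were seen. The results of some of the list genes are left out here.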

Additional observations from a re-analysis of the deposited data

How the results depend on the processing

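The falls of Dlx1 and Dlx2 over the whole span passed under all 16 alternatives run on that comparison, with log2 fold changes of -1.72 to -1.24 and -1.96 to -1.59. The number of Dlx genes that passed moved more. In the first interval it was 2, became 1 at an adjusted p of at most 0.01 and 1 when the fold required of a DEG was added, and ranged from 0 to 3 when a library was left out. In the second interval it was 3, became 0 and 1 under these stricter thresholds, and ranged from 0 to 3. Over the whole span it ranged from 2 to 4. With the 3 stages tested together it was 4, became 2 with the replicate number as a block, and ranged from 2 to 5. The calls over all genes moved as well when a library was left out. They ranged from 477 to 6447 in the first interval (1849 in the main fit) and from 716 to 4976 in the second (1926). Over the whole span they ranged from 2202 to 4962 (3906), and with the 3 stages together from 3257 to 6275 (4630). Leaving out a library removes 1 of 3 libraries of a stage, and the cause of each lost call was not tested. 2 values near 0 changed sign: the first-interval log2 fold change of Dlx3 ranged from -0.20 to 0.24, and the second-minus-first difference of Dlx5, an alternative contrast chosen after seeing the data, from -0.28 to 0.067. For the 3 within-pair ratios, the E12.5 minus E10.5 difference kept its sign and the test over the 3 stages its side of the threshold under every alternative run. Smaller steps did not keep their sign: the E12.5 minus E11.5 difference of Dlx6 over Dlx5 was 0.067, but -0.094 when E11.5 replicate 1 and -0.15 when E12.5 replicate 3 was left out, and the E11.5 minus E10.5 difference of Dlx2 over Dlx1 was 0.0012, but -0.031 without E10.5 replicate 1.

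The deviations from the stage mean had correlations of -0.15 to 0.22 between same-numbered libraries of different stages. Between differently numbered libraries they were -0.22 to 0.22. Whether libraries of the same number share a batch cannot be told from these values or from the sources. Under the block, Dlx5 was also lost over the whole span (edgeR adjusted p = 0.0558), and Dlx4 and Dlx5 in the test over the 3 stages (0.0532 and 0.0689). Depth limits Dlx4, Dlx1as and Dlx4os, whose counts stayed at or below 41 in every library.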
